A study of Mus musculus with 4 samples.

Results

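The proximal tubule of the kidney takes up filtered proteins through a receptor apparatus whose parts are encoded by 7 genes considered here: Lrp2, Cubn, Amn, Dab2, Clcn5, Fcgrt and Lrpap1. The members were listed by name, with earlier results of these data known, and all probe sets annotated to them were taken, with no threshold on their values. They comprised 19 of the 45101 probe sets on the array and 7 of 18193 named genes. All 7 genes and all 19 probe sets passed the filter for expression, a mean of at least 7.06 on the log2(signal + 26.4) scale, as did 11197 genes in all. Lrp2, Cubn and Fcgrt encode receptors, while Amn, Dab2, Clcn5 and Lrpap1 encode a partner, an adaptor, an ion exchanger and a chaperone.

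Kidney RNA of female FVB/NJ mice was measured in 4 groups, each on 1 Affymetrix array that was hybridised with RNA pooled from 4 mice. These were OVE26 transgenic, diabetic mice after uninephrectomy, OVE26 transgenic, diabetic mice after sham surgery, control-genotype, nondiabetic mice after uninephrectomy, and control-genotype, nondiabetic mice after sham surgery. Surgery was done at 2 months of age and kidneys were taken at 4.5 months, 10 weeks later, after perfusion with phosphate-buffered saline. The OVE26 transgene drives calmodulin from an insulin promoter in pancreatic beta cells, so the mice become short of insulin and the transgene does not act in the kidney. Uninephrectomy, the removal of 1 kidney, served as an accelerating factor. Values below are array signals in the scale of the deposited table, and with 1 array per group they have no SD. Signals of different probe sets are not compared with each other, because probes differ in how strongly they bind. In kidney homogenate, fewer cells of a type and less RNA per cell cannot be told apart.

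Megalin, the product of Lrp2, is a giant membrane receptor of the LDL receptor family that binds albumin, vitamin-binding proteins, hormones and many other ligands in the tubular fluid. Cubilin, the product of Cubn, has no membrane-spanning segment and is anchored by amnionless, the product of Amn, with which it forms the intestinal receptor for intrinsic factor and vitamin B12. Both receptors sit at the apical brush border and are taken into clathrin-coated pits by the adaptor Dab2. The chloride/proton exchanger ClC-5, encoded by Clcn5 and mutated in Dent disease of humans, serves the endosomes in which ligand and receptor part. Fcgrt encodes the neonatal Fc receptor, which binds albumin and IgG at acid pH and returns them from lysosomal degradation. Lrpap1 encodes the receptor-associated protein, a chaperone of the endoplasmic reticulum that keeps megalin from binding ligands during its synthesis.

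The RefSeq table of assembly GRCm38.p6 held 9 promoter windows for the 7 genes, each reaching from 250 bases before to 50 bases after a transcription start. The windows of megalin, its partner receptor cubilin and its chaperone are shown, because the products of these genes bind each other. They lie at chr2:69585980-69586279 for Lrp2, at chr2:13491827-13492126 for Cubn and at chr5:35105650-35105949 for Lrpap1, all on the minus strand. Letters run 5′ to 3′ along the gene's strand, and capitals mark GC boxes, GGGCGG on either strand.
Lrp2: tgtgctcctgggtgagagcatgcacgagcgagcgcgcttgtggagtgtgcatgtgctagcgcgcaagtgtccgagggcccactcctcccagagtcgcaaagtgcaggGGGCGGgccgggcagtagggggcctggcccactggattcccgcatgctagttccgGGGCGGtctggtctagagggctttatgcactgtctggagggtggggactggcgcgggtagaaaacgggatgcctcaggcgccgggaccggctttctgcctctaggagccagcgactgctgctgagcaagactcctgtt
Cubn: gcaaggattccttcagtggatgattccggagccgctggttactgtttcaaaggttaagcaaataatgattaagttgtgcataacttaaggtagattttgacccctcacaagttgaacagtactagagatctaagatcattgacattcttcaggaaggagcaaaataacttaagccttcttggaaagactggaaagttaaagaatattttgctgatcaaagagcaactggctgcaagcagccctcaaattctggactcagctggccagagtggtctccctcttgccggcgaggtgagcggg
Lrpap1: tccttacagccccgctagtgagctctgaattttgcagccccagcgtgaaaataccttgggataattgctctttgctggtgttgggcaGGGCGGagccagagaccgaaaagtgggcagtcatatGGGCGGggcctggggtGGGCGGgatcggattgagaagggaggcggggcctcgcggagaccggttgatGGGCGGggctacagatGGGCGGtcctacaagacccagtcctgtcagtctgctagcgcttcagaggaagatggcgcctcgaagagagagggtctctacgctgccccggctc
The Lrp2 window held 2 GC boxes at a GC content of 65.0%, the Lrpap1 window held 5 at 61.3%, and the Cubn window held 0 at 44.3%. A GC box was present in 4 of the 9 windows, against 35.66% of all 32851 promoter windows of the table, whose median GC content was 52.7%. The 4 other motifs were also searched on both strands, and none of the 5 contains another. The HNF1 half-site GTTAAT was found in 1 of the 9 windows, at Dab2, and in 7.1% of all windows. The E-box CACGTG was found in 1, at Amn, against 7.15% of all windows, and TATAAA in 1, at Clcn5, against 13.62%. The nuclear receptor half-site AGGTCA was in 0 of the 9 and in 16.26% of all windows. No searched motif was present in all 3 of the windows shown.

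None of the 7 genes passed the test for diabetes or for uninephrectomy. In limma with both factors in the model, 0 of 7 had a Benjamini-Hochberg adjusted p below 0.05 for diabetes, where 250 of 11197 genes (2.23%) passed, 166 higher and 84 lower in diabetic kidneys. For uninephrectomy, 0 of 7 passed, where 58 genes (0.518%) did, 38 higher and 20 lower. Without adjustment, 0 of 7 members reached a p below 0.05 for diabetes and 1, Cubn, for uninephrectomy, while 1067 and 635 of all genes did so. By the probe set that represents each gene, its brightest on average, no member differed by 1.5-fold between any pair of arrays that differ in a single factor. Further probe sets of Lrp2 (1445901_at) and Clcn5 (1450787_at) passed 1.5-fold for diabetes, as given below. Yet for the probe sets that represent the genes, the diabetic uninephrectomy array gave the lowest of the 4 signals for 6 of the 7 genes, all but Dab2. The lowest value lay on that array for 30.3% of all expressed genes, and for 40.8% of the 1045 genes at least as bright as the dimmest member. The plot of signals by array shows the values behind these counts.

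**Figure D1:**
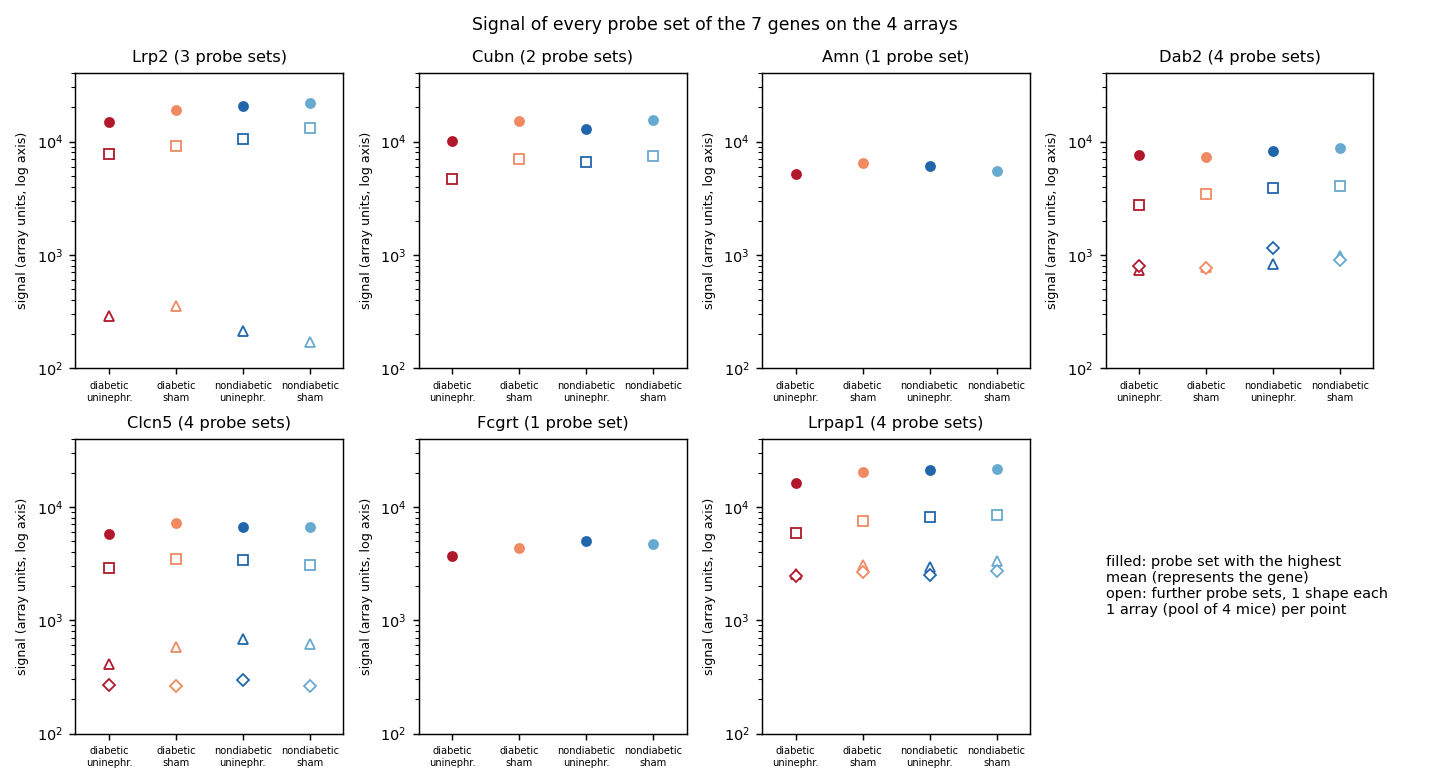
Array signals (vertical axis, array units on a log axis) of the 19 probe sets of the 7 genes, 1 panel per gene, with the arrays in the order diabetic uninephrectomy, diabetic sham, nondiabetic uninephrectomy and nondiabetic sham. Filled points are the probe set that represents the gene and open points are further probe sets; each point is 1 array of pooled RNA, so there are no error bars. The diabetic uninephrectomy array is lowest for 15 of the 19 probe sets.

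Lrp2, the megalin gene, was measured by 3 probe sets. Its representing probe set, 1427133_s_at, had a signal of 14838.6 in diabetic uninephrectomy kidneys, 18980.1 in diabetic sham, 20629.9 in nondiabetic uninephrectomy and 22010.7 in nondiabetic sham kidneys. The signal was thus lowest with both conditions and highest with neither, and both diabetic arrays lay below both nondiabetic arrays. On the log2 scale the diabetes difference was -0.47 in uninephrectomised and -0.21 in sham mice, and the uninephrectomy difference was -0.35 in diabetic and -0.09 in nondiabetic mice. The second probe set, 1452320_at, gave 7810.7, 9063.4, 10441.2 and 13058.7 on the arrays in the same order. It kept the order of the arrays. Its diabetes difference was -0.42 in uninephrectomised and -0.53 in sham mice, and its uninephrectomy difference -0.21 in diabetic and -0.32 in nondiabetic mice. The diabetic uninephrectomy signal was 0.598 of that in nondiabetic sham kidneys by this probe set and 0.674 by the representing one.

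The third Lrp2 probe set, 1445901_at, ran the other way. Its signal was 289.0 in diabetic uninephrectomy, 357.1 in diabetic sham, 212.9 in nondiabetic uninephrectomy and 169.3 in nondiabetic sham kidneys. The diabetic arrays were here the higher ones, by 0.40 in uninephrectomised and 0.97 in sham mice on the log2 scale. It was the only 1 of the 19 member probe sets past 1.5-fold for diabetes in sham mice, where 8.55% of 19342 expressed probe sets passed. What part of the transcript these probes bind is not stated in the files. In limma the mean diabetes difference of Lrp2, from the representing probe set, was -0.34 (SE 0.19, adjusted p = 0.641), with a 95% interval of -0.73 to 0.04. Averaged over the 3 probe sets, that mean was -0.04, with -0.16 in uninephrectomised and 0.08 in sham mice, so the direction in sham mice depends on the probe sets used.

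Cubn, the cubilin gene, had a signal of 10156.8 in diabetic uninephrectomy, 15186.9 in diabetic sham, 12917.0 in nondiabetic uninephrectomy and 15495.5 in nondiabetic sham kidneys by its representing probe set, 1452270_s_at. Here both uninephrectomy arrays lay below both sham arrays, and the sham arrays of diabetic and nondiabetic mice differed by only -0.03 on the log2 scale. The uninephrectomy difference was -0.58 in diabetic and -0.26 in nondiabetic mice. A mean uninephrectomy difference of -0.42 (SE 0.18) had an unadjusted p of 0.0225 in limma, but an adjusted p of 0.638. Its 95% interval, -0.78 to -0.06, holds for this gene alone and takes no account of the other genes tested. After quantile normalisation between arrays, the difference of -0.45 had an adjusted p of 0.0417 in limma, the one alternative under which a member passed.

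The second Cubn probe set, 1426990_at, had signals of 4638.8, 6970.5, 6602.6 and 7456.0 in diabetic uninephrectomy, diabetic sham, nondiabetic uninephrectomy and nondiabetic sham kidneys. It likewise placed the uninephrectomy arrays lowest, with differences of -0.58 in diabetic and -0.17 in nondiabetic mice. Its diabetes difference was -0.51 in uninephrectomised and -0.10 in sham mice. The diabetic uninephrectomy signal was 0.622 of that in nondiabetic sham kidneys by this probe set and 0.656 by the representing one. Among the 7 genes Cubn had the largest SD of log2 values over the 4 arrays, 0.28, followed by Lrp2 with 0.25, and Dab2 had the smallest, 0.12.

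Amn, which anchors cubilin, did not follow the order of Cubn. Its single probe set, 1417920_at, had a signal of 5140.0 in diabetic uninephrectomy, 6420.2 in diabetic sham, 6059.4 in nondiabetic uninephrectomy and 5515.7 in nondiabetic sham kidneys. The diabetic sham array was the highest of the 4 and the diabetic uninephrectomy array the lowest. The diabetes difference was -0.24 in uninephrectomised and 0.22 in sham mice, which averaged to -0.0091 (SE 0.16) with an adjusted p of 0.998 in limma. The 95% interval of that mean ran from -0.33 to 0.31.

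Dab2 encodes the clathrin adaptor that binds the tail of megalin, and its 4 probe sets differed among themselves in the order of the arrays. The representing 1420498_a_at gave 7553.3 in diabetic uninephrectomy, 7253.8 in diabetic sham, 8215.2 in nondiabetic uninephrectomy and 8719.3 in nondiabetic sham kidneys. Both diabetic arrays lay below both nondiabetic arrays, and the diabetic sham array was the lowest. The probe set 1423805_at, in contrast, gave 2748.7, 3457.5, 3916.1 and 4077.5 in the same order of arrays, with the diabetic uninephrectomy array lowest and a diabetes difference of -0.51 in uninephrectomised mice. For 1430604_a_at the signals were 739.4, 779.3, 828.0 and 977.4, and the diabetic arrays were again the lower ones. For 1429693_at they were 790.6, 770.5, 1148.3 and 897.7, with the highest value in nondiabetic uninephrectomy kidneys. All 4 probe sets thus had lower signals in diabetic than in nondiabetic kidneys in both arms, although limma's mean of -0.19 for the representing probe set had an SE of 0.16 and an adjusted p of 0.885.

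Clcn5, which encodes the endosomal exchanger ClC-5, had 4 probe sets. The representing 1420295_x_at gave 5713.1 in diabetic uninephrectomy, 7196.8 in diabetic sham, 6653.0 in nondiabetic uninephrectomy and 6632.6 in nondiabetic sham kidneys. The diabetic uninephrectomy array was lowest and the diabetic sham array highest, an order that 1429400_at repeated with 2878.3, 3457.7, 3361.0 and 3047.7. The dimmer 1450787_at had 413.2 in diabetic uninephrectomy kidneys, against 583.7, 684.9 and 616.5 in diabetic sham, nondiabetic uninephrectomy and nondiabetic sham kidneys. Its diabetes difference of -0.69 in uninephrectomised mice was the only 1 of 19 member probe sets past 1.5-fold in that comparison, in which 12.5% of all expressed probe sets passed. The fourth, 1441831_x_at, lay between 262.4 and 294.8 on all arrays. The suffix x in 2 of these names marks probes that may also bind transcripts of other genes.

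Fcgrt, the neonatal Fc receptor gene, had 1 probe set, 1416978_at, with 3701.3 in diabetic uninephrectomy, 4293.7 in diabetic sham, 5032.6 in nondiabetic uninephrectomy and 4676.7 in nondiabetic sham kidneys. Both diabetic arrays lay below both nondiabetic arrays. The diabetes difference was -0.44 in uninephrectomised and -0.12 in sham mice. The mean of -0.28 (SE 0.15) had a 95% interval of -0.59 to 0.03 and an adjusted p of 0.613, the lowest of the 7 members for diabetes in limma.

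Lrpap1, the chaperone gene, had 4 probe sets, all lowest on the diabetic uninephrectomy array. The representing 1436609_a_at gave 16361.7 in diabetic uninephrectomy, 20466.4 in diabetic sham, 21289.8 in nondiabetic uninephrectomy and 21393.6 in nondiabetic sham kidneys. The other 3 arrays lay close together, and the uninephrectomy difference was -0.32 in diabetic and -0.0070 in nondiabetic mice. The probe set 1426696_at had 5932.0, 7496.3, 8181.7 and 8493.7 in the same order of arrays. Signals of 1426697_a_at lay between 2548.5 and 3328.2, and those of 1452148_at between 2431.8 and 2689.6, both with the highest value in nondiabetic sham kidneys. The diabetes difference in uninephrectomised mice spanned -0.46 to -0.04 over the 4 probe sets.

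Across the 7 genes the diabetes difference was below 0 for 7 of 7 genes and 18 of 19 probe sets in uninephrectomised mice, the comparison in which 51.4% of all expressed genes were lower. In sham mice it was below 0 for 5 of 7 genes and 14 of 19 probe sets, against 48.3% of all genes. The member median was -0.35 in uninephrectomised mice, with a range of -0.47 to -0.12, and -0.06 in sham mice, with a range of -0.26 to 0.22. The medians of all expressed genes were -0.0099 and 0.011. Those of genes at least as bright as the dimmest member were -0.068 and 0.054. Members stood low in the distribution of all expressed genes, bright and dim, in uninephrectomised mice, without lying at its end: 8.99% of genes had a more negative diabetes difference than Lrp2, 10.4% than Fcgrt, 13.1% than Lrpap1, 15.2% than Cubn, 23.4% than Amn, 25.2% than Clcn5 and 35.9% than Dab2.

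Uninephrectomy was accompanied by lower signals of 6 of 7 genes and 16 of 19 probe sets in diabetic mice, where 52.4% of all genes were lower, and of 4 of 7 genes and 11 of 19 probe sets in nondiabetic mice, against 49.5% of all genes. The member median was -0.32 in diabetic mice (range -0.58 to 0.06) and -0.0070 in nondiabetic mice (range -0.26 to 0.14). Genes at least as bright as the dimmest member had medians of -0.075 and 0.06. Cubn stood lowest in diabetic mice, with 4.46% of all genes more negative, followed by Lrp2 with 13.5%. The diabetes and uninephrectomy comparisons that involve the diabetic uninephrectomy array share it, so a low value there enters both. The mean differences in limma for uninephrectomy were -0.22 for Lrp2, -0.09 for Amn, -0.01 for Dab2, -0.16 for Clcn5, -0.05 for Fcgrt and -0.16 for Lrpap1, each with an adjusted p of 0.9997.

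Against a threshold of 1.5-fold, 0 of 7 genes passed by their representing probe sets in each of the 4 comparisons. Of all expressed genes, 12.5% passed for diabetes in uninephrectomised mice and 7.47% in sham mice, 9.34% for uninephrectomy in diabetic mice and 6.64% in nondiabetic mice. Among the 19 probe sets, 0 passed for uninephrectomy in diabetic mice, where 9.61% of all expressed probe sets did, and 0 in nondiabetic mice, where 7.86% did. The threshold was applied on the log2(signal + 26.4) scale, where Cubn 1426990_at lay just short of it in diabetic mice, although its plain signals were 1.503-fold lower after uninephrectomy than after sham surgery. The diabetic uninephrectomy array held the lowest value of 15 of the 19 probe sets, against 29.9% of all expressed probe sets, and the highest of 0. The nondiabetic sham array held the highest value of 11. The shares of all expressed probe sets with their highest value on either array were not counted. The plot of differences sets the 4 comparisons side by side for each gene.

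**Figure D2:**
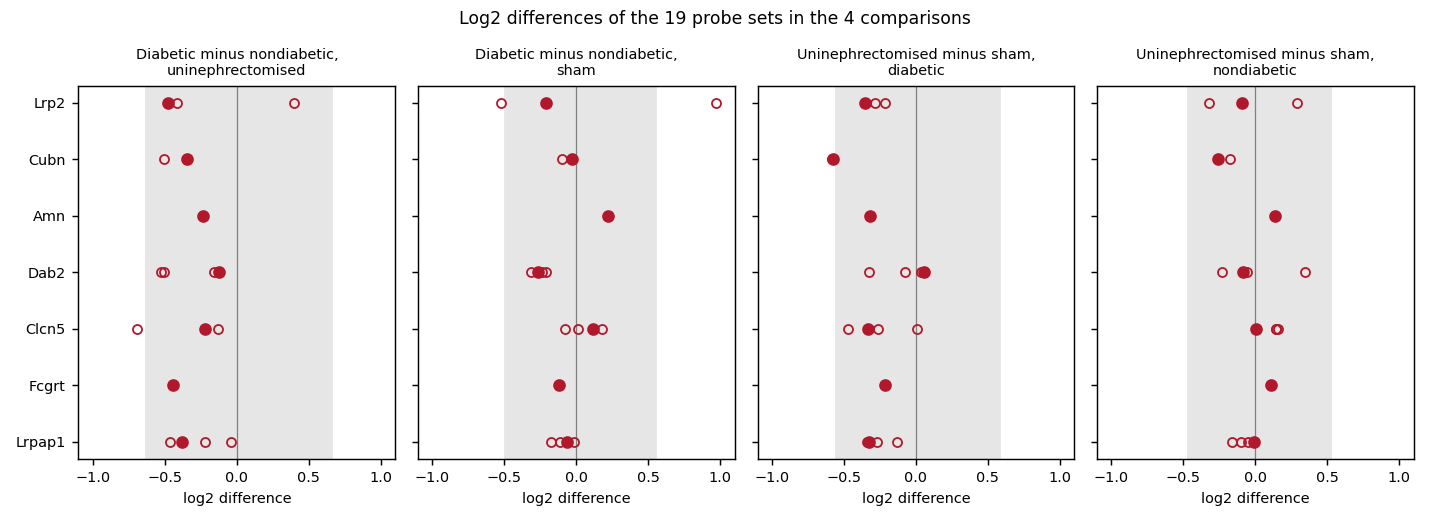
Log2 differences (horizontal axis) of the 19 probe sets, 1 row per gene and 1 panel per comparison, with the representing probe set filled and further probe sets open; each point is a difference between 2 arrays of pooled RNA, without error bars, and the grey band spans all expressed genes except the 5% at either end. The filled points lie between -0.47 and -0.12 for diabetes in uninephrectomised mice and between -0.26 and 0.22 in sham mice, and 5 points lie outside the bands: Clcn5 at -0.69 in the first panel, Lrp2 at -0.53 and 0.97 in the second, and both Cubn points at -0.58 in the third.

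Whether uninephrectomy went with a different shift in diabetic than in nondiabetic mice was described by the uninephrectomy difference in diabetic mice minus that in nondiabetic mice. This difference of effects was negative for 6 of the 7 genes and had a median of -0.32. The share of all expressed genes with a negative value was not counted. The difference of effects was -0.45 for Amn, -0.34 for Clcn5, between -0.32 and -0.26 for Cubn, Lrpap1, Fcgrt and Lrp2, and 0.14 for Dab2. These values are from the representing probe sets. The further probe sets of Lrp2 had 0.11 (1452320_at) and -0.57 (1445901_at). Those of Dab2 had -0.27 (1423805_at), 0.16 (1430604_a_at) and -0.31 (1429693_at), so the sign depended on the probe set for both genes. All expressed genes had a median of -0.015, with 5% below -0.79 and 5% above 0.76. Genes at least as bright as the dimmest member had a median of -0.12. Of the gene lists described below, the proximal tubule markers had a median of -0.32 as well. Proximal tubule transcription factors had -0.51, podocyte markers -0.50, and distal tubule and collecting duct markers -0.52. The LDL receptor family had -0.16, the clathrin coat and its adaptors -0.14, and macrophage markers 0.76. This contrast uses all 4 arrays and leaves no residual, and has no test. The hybridisation controls, labelled RNAs of bacterial and phage genes added before hybridisation, had a difference of effects of the same sign, -0.73. Relative to nondiabetic sham their 18 probe sets stood at 0.918 in diabetic uninephrectomy, 1.24 in diabetic sham and 1.23 in nondiabetic uninephrectomy. These controls were thus lowest on the diabetic uninephrectomy array, which was also lowest for 15 of the 19 member probe sets. Their highest array was diabetic sham, whereas nondiabetic sham held the highest value of 11 of the 19 member probe sets. The part of these controls in the members' values was not tested. After quantile normalisation the median of this contrast was -0.18 for the members. With each array centred on its median, it was -0.11 for the members and 0.19 for all genes. That centring moved the median of all genes in single comparisons as well, to 0.11 for diabetes in uninephrectomised mice and to -0.13 for uninephrectomy in nondiabetic mice, so the members are best read relative to those medians. Under it the members' medians were -0.23 and -0.14, and the uninephrectomy difference in nondiabetic mice changed its sign for Clcn5 and Fcgrt.

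Of the other technical measures, the spike-ins added before labelling (difference of effects -0.30), the Gapdh 3′ to 5′ ratio (-0.30) and the beta-actin 3′ to 5′ ratio (-0.47) had the same sign as the members, and 18S ribosomal RNA (0.49) the opposite one. Their part in the members' values was not tested either. The 3 probe sets for 18S ribosomal RNA stood at 1.88, 1.32 and 1.02 of nondiabetic sham in diabetic uninephrectomy, diabetic sham and nondiabetic uninephrectomy. Spike-ins added before labelling (24 probe sets) stood at 0.897, 1.08 and 1.02 in the same order. Like the hybridisation controls, these spike-ins were lowest in diabetic uninephrectomy. The ratio of 3′ to 5′ probe set signals for Gapdh, a measure of RNA length, lay between 0.897 and 1.01 on all arrays. For beta-actin it was 3.38 in diabetic uninephrectomy, 3.72 in diabetic sham, 3.49 in nondiabetic uninephrectomy and 2.78 in nondiabetic sham kidneys. Median signals of the arrays lay between 106.8 and 119.3, and correlations between arrays over expressed genes lay between 0.969 and 0.983.

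Markers of the proximal tubule, the segment that holds the apparatus, gave signals on every array: 22 of the 24 listed genes were expressed. Their summed signal was 277477 in diabetic uninephrectomy, 333992 in diabetic sham, 367176 in nondiabetic uninephrectomy and 336498 in nondiabetic sham kidneys. The diabetic uninephrectomy array was lowest for the sum and for 14 of the 22 markers. Slc22a8, the organic anion transporter OAT3 of the basolateral membrane, was the 1 marker that fell with diabetes in limma, with 3171.8 and 5856.9 in diabetic against 7744.3 and 6579.2 in nondiabetic kidneys after uninephrectomy and sham surgery (mean log2 difference -0.72, SE 0.17, adjusted p = 0.00725). None passed for uninephrectomy. The median diabetes difference of the markers was -0.26 in uninephrectomised and 0.10 in sham mice, beside -0.35 and -0.06 for the 7 members. How far the members' values follow the amount of proximal tubule RNA was described by subtracting the markers' median log2 value on each array.

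Relative to the markers, the members' diabetes differences in uninephrectomised mice were smaller in size than without this step. The value was -0.30 for Lrp2, -0.27 for Fcgrt, -0.21 for Lrpap1, -0.17 for Cubn, -0.06 for Amn, -0.05 for Clcn5 and 0.05 for Dab2. When the median of the markers' own differences was subtracted instead, it was -0.22 for Lrp2, -0.18 for Fcgrt, -0.12 for Lrpap1, -0.09 for Cubn, 0.02 for Amn, 0.04 for Clcn5 and 0.14 for Dab2, so Amn and Clcn5 changed sign. In sham mice the first form of subtraction gave -0.27 for Lrp2, -0.33 for Dab2, -0.18 for Fcgrt and -0.12 for Lrpap1. It gave values between -0.09 and 0.16 for the others. The second form gave -0.32, -0.37, -0.22 and -0.17 for these genes in the same order, and values between -0.13 and 0.12 for the others. Lrp2, Cubn, Fcgrt and Lrpap1 had negative values in both arms in either form. For uninephrectomy in diabetic mice the value by the first form was -0.47 for Cubn, -0.25 for Lrp2, -0.21 for Lrpap1 and -0.11 for Fcgrt. With the median of the markers' differences it was -0.31 for Cubn, -0.08 for Lrp2, -0.05 for Lrpap1 and 0.06 for Fcgrt. No test was made of these values, whose size depends on the form of the subtraction and on the markers chosen.

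**Figure D3:**
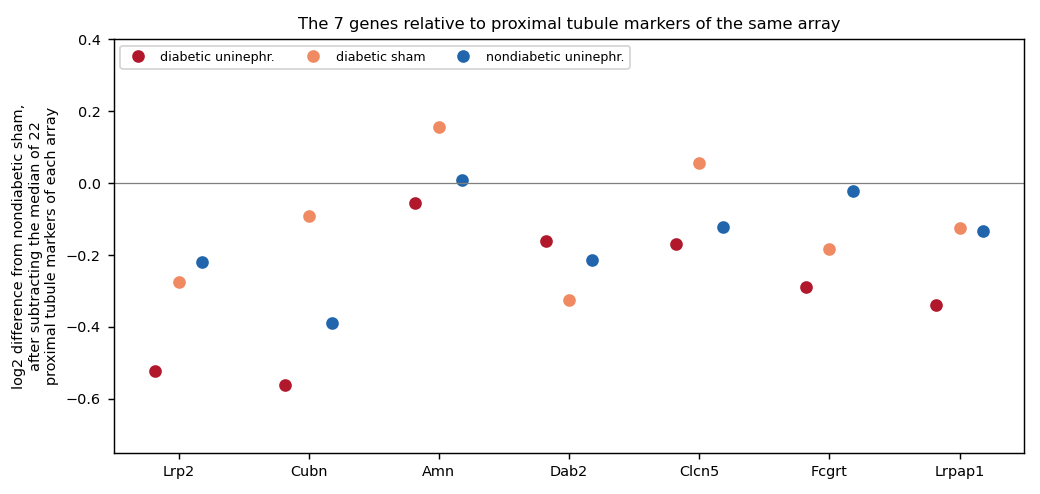
Log2 difference from the nondiabetic sham array (vertical axis) for each of the 7 genes after the median of 22 proximal tubule markers was subtracted on every array; points stand for diabetic uninephrectomy, diabetic sham and nondiabetic uninephrectomy, 1 array each, without error bars. Lrp2 (-0.52) and Cubn (-0.56) have the lowest values on the diabetic uninephrectomy array, and Amn (-0.05) the value nearest 0 there.

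The rest of the endocytic machinery was described by lists of genes grouped by function. Of the LDL receptor family, 8 of 11 listed genes were expressed and 0 passed limma for either factor. Their median diabetes difference was 0.03 in uninephrectomised mice and 0.15 in sham mice. Lrp1, a broadly expressed relative of megalin, had signals of 369.8 and 468.3 in diabetic uninephrectomy and diabetic sham kidneys, against 312.0 and 355.6 in nondiabetic uninephrectomy and nondiabetic sham kidneys. Vldlr, the receptor for very low density lipoprotein, had a mean diabetes difference of -0.11.

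Of the clathrin coat and its adaptors, 14 of 16 genes were expressed and 0 passed for either factor, with median diabetes differences of -0.08 in uninephrectomised and 0.10 in sham mice. Ap2m1, the cargo-binding subunit of the AP-2 adaptor, had 2138.8 and 2064.6 in diabetic uninephrectomy and diabetic sham kidneys, against 1753.5 and 1584.9 in nondiabetic uninephrectomy and nondiabetic sham kidneys. Its mean diabetes difference of 0.33 had an adjusted p of 0.454 in limma. Of 21 genes for endosome sorting and recycling, 19 were expressed and 0 passed. The largest mean diabetes difference among them was -0.75 for Pik3c3, the endosomal lipid kinase Vps34 (adjusted p = 0.113 in limma), followed by -0.57 for Ehd3 and 0.54 for Ehd4, both ATPases of recycling membranes (adjusted p = 0.157 and 0.131). Of 13 genes for endosome acidification and CLC exchangers, 12 were expressed and 0 passed, with medians of -0.04 in uninephrectomised and 0.06 in sham mice. The members' median of -0.35 for diabetes in uninephrectomised mice was below the medians of all 4 lists, a description without a test. Medians of other kidney lists in this comparison lay on either side of it. They were -0.63 for distal tubule and collecting duct markers, -0.42 for podocyte markers and -0.40 for proximal tubule transcription factors. Proximal tubule markers had -0.26, endothelial markers -0.10 and macrophage markers 0.72.

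**Figure D4:**
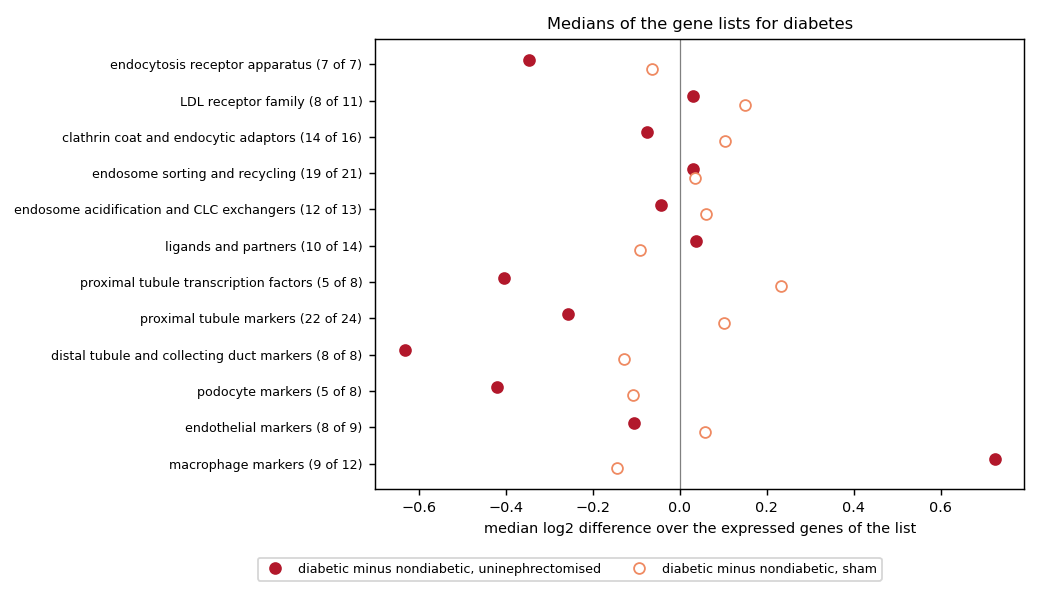
Median log2 difference for diabetes (horizontal axis) over the expressed genes of each list, with the number expressed of the number listed, in uninephrectomised mice (filled) and sham mice (open); medians over genes carry no error bars. The 7 members lie at -0.35 and -0.06, the proximal tubule markers at -0.26 and 0.10 and the macrophage markers at 0.72 and -0.14.

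Ligands of the receptors and proteins that share their route were expressed for 10 of 14 listed genes. With diabetes 2 rose and 1 fell in limma. Lcn2 encodes neutrophil gelatinase-associated lipocalin, a megalin ligand that injured tubules also make. It had 3374.4 in diabetic uninephrectomy and 224.5 in diabetic sham kidneys, against 5.7 in nondiabetic uninephrectomy and 41.7 in nondiabetic sham kidneys. Both diabetic arrays lay above both nondiabetic arrays (adjusted p = 2.51e-10 in limma). The signal of 5.7 lies below the 20th percentile of its array, 30.1, so the size of the difference depends on the offset and is not given. Clu, the gene of clusterin, another megalin ligand, rose by 0.72 with diabetes (adjusted p = 0.0109) and by 0.75 with uninephrectomy (adjusted p = 0.0217) in limma. Alb, the gene of albumin, whose protein is made mainly by liver, fell by 0.97 with diabetes (adjusted p = 0.0141), with 203.3 and 376.8 in diabetic against 651.2 and 497.9 in nondiabetic kidneys after uninephrectomy and sham surgery. Apoe, the gene of a lipoprotein ligand of the LDL receptor family, rose by 0.69 with uninephrectomy (adjusted p = 0.00999). Folr1, the folate receptor of the brush border, had 6628.6, 7665.5, 8784.1 and 9128.6 in diabetic uninephrectomy, diabetic sham, nondiabetic uninephrectomy and nondiabetic sham kidneys, the order seen for Lrp2, with a mean diabetes difference of -0.33 and an adjusted p of 0.518. B2m, the light chain of the neonatal Fc receptor, had 19150.8 in diabetic uninephrectomy and 16285.6 in diabetic sham kidneys, against 20115.0 in nondiabetic uninephrectomy and 18127.1 in nondiabetic sham kidneys, and did not pass (adjusted p = 0.98).

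Transcription factors of the proximal tubule were expressed for 5 of 8 genes and 0 passed for either factor. Hnf4a, a nuclear receptor of tubule and liver, had 9962.5 in diabetic uninephrectomy, 13319.6 in diabetic sham, 13188.4 in nondiabetic uninephrectomy and 12650.2 in nondiabetic sham kidneys. The list's median diabetes difference was -0.40 in uninephrectomised and 0.23 in sham mice.

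Tubular injury markers were highest on the array on which most members were lowest. Of 8 listed, 5 were expressed, all with their highest signal in diabetic uninephrectomy kidneys. In limma 4 rose with diabetes (Havcr1, Lcn2, Cd44 and Krt18) and 1, Vcam1, rose with uninephrectomy. Vcam1 had 2041.2 in diabetic uninephrectomy and 375.3 in diabetic sham kidneys, but 437.8 in nondiabetic uninephrectomy and 507.1 in nondiabetic sham kidneys, so the nondiabetic arm ran the other way. Havcr1, the gene of kidney injury molecule 1, had 2551.6 in diabetic uninephrectomy and 359.0 in diabetic sham kidneys, against 98.8 in nondiabetic uninephrectomy and 221.0 in nondiabetic sham kidneys. The list's median diabetes difference was 2.16 in uninephrectomised and 0.64 in sham mice. The part of injury in the members' values was not tested.

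Markers of other cells in the kidney moved as well. Of 12 macrophage markers 9 were expressed, and Lyz2, the gene of lysozyme, and Cd14, a receptor for endotoxin, rose with diabetes in limma (adjusted p = 4.81e-07 and 0.0265). Cd14 had 1462.6 in diabetic uninephrectomy kidneys, against 278.0 in nondiabetic uninephrectomy kidneys, but 343.9 in diabetic sham kidneys, against 423.8 in nondiabetic sham kidneys. Its call thus rests on the diabetic uninephrectomy array, and the sham arm ran the other way. Lyz2 also rose with uninephrectomy in limma (adjusted p = 0.00981), with 5042.8 in diabetic uninephrectomy and 1010.8 in diabetic sham kidneys, while the nondiabetic arm ran the other way, with 634.8 after uninephrectomy and 726.8 after sham surgery. The summed signal of the 9 was 17038 in diabetic uninephrectomy, against 9649 in diabetic sham, 8854 in nondiabetic uninephrectomy and 10441 in nondiabetic sham kidneys, and Cd68, Itgam and Cd163 did not count as expressed. Macrophages and endothelium also express Fcgrt and Dab2, and the part of these cells in the 2 genes' signals was not tested. Endothelial markers (8 of 9 expressed) had a summed signal between 8025 and 9148, and 0 passed. Of 8 podocyte markers 5 were expressed, with summed signals of 2774.5 in diabetic uninephrectomy, 4109.1 in diabetic sham, 3820.4 in nondiabetic uninephrectomy and 3956.5 in nondiabetic sham kidneys, and Nphs1 fell with diabetes by 0.93 (adjusted p = 0.0432). All 8 fibroblast and pericyte markers were expressed and 3 (Acta2, Tagln and Rgs5) rose with diabetes. Of distal tubule and collecting duct markers, 8 of 8 were expressed, Aqp2 rose with diabetes and Pvalb, Slc26a4 and Atp6v1b1 fell. Of 6 adipocyte markers 4 were expressed, 3 (Adipoq, Car3 and Fabp4) rose with diabetes and 2 (Adipoq and Car3) fell with uninephrectomy. Of 6 lymphocyte markers only Ighm was expressed, and it did not pass.

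Genes with the pattern most like that of Lrp2 and Cubn were found by the Euclidean distance between log2 values centred on each gene's mean over the 4 arrays. For Lrp2 the nearest were Efnb2 (distance 0.0483), 2210010C04Rik (0.0484), Cxcl14 (0.0488), Rora (0.0489) and Tcp11l2 (0.0524). For Cubn they were Fbxo9 (0.0335), Mdn1 (0.0394), Tbx3 (0.0541), Rcsd1 (0.0562) and Ccnl2 (0.0637). With 4 points per gene, drawn from the same arrays and chosen among 11197 genes, such likeness is a description. The 7 members were left out of the search.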

How the data were processed

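Per the labels' protocols, kidney RNA was extracted with TriZol, pooled from 4 mice per group, and 100 ng labelled with biotin. The intensity values deposited for each probe set are linear. Which software the authors summarised probes with is not given in the sources used here. Trimmed of the top and bottom 2%, all arrays averaged 500.003, so the authors had scaled them. Of 45037 probe sets that are not controls, the platform annotation gave 1 symbol for 34945, several for 932 and none here for 9160. A RefSeq table of GRCm38.p6 held 34741 of the 34945 and changed 0 symbols.

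Intensities were taken as log2(value + 26.4), with the 20th percentile of all values as offset, which understates differences of dim genes. A gene's brightest probe set on average stood for it. Genes at or above the median over all probe sets (7.06) counted as expressed. An additive model of diabetes and surgery was fitted to 11197 genes with limma (version 3.58.1, under R version 4.3.3, trended eBayes, Benjamini-Hochberg adjustment, threshold 0.05). It has 1 residual degree of freedom per gene and 59.5 prior degrees of freedom from other genes, and no value measures the spread between animals. Intervals use the t distribution with the sum of both. Rose and fell are said only of genes that passed. Differences between single arrays have no test. The number of arrays limits the precision.

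On data simulated for the diabetes comparison with the 11197 genes, the fit recovered 79% of genes changed by 1 and 100% of genes changed by 2 on the log2 scale, with 5 unchanged genes among 184 calls. The members and all gene lists were chosen with earlier results of these data known. Named genes are the members, list genes that passed limma, up to 4 further genes per list with the largest mean diabetes difference, and the 5 genes nearest to Lrp2 and to Cubn, which also had the largest SD. Marker genes named as not expressed and markers used for a check were named in addition. Alternatives were offsets of 1 and 72.5 (40th percentile), quantile normalisation, median centring, no filter, a filter at 8.93 (upper quartile), averaging over the probe sets of each gene, single probe sets, limma without trend, an adjusted p below 0.1 and a 2-fold threshold. Leaving out probe sets ending in _s_at or _x_at, and the background of bright genes, were added after seeing the data.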

Additional observations from a re-analysis of the deposited data

Results flagged for a closer look

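4 of the 7 members had differences of opposite sign in the 2 arms of a factor, each from 1 pair of arrays, so the difference between the arms was not tested. The share of all expressed genes with opposite signs was not counted. Medians of all expressed genes lay near 0 in each arm, between -0.019 and 0.011. The number of members with opposite signs can thus not be read as particular to them. Amn was lower with diabetes in uninephrectomised mice (-0.24) and higher in sham mice (0.22), and lower with uninephrectomy in diabetic mice (-0.32) and higher in nondiabetic mice (0.14), a difference of effects of -0.45 on the log2 scale. Clcn5 had a diabetes difference of -0.22 in uninephrectomised and 0.12 in sham mice, and a uninephrectomy difference of -0.33 in diabetic and 0.0044 in nondiabetic mice, a difference of effects of -0.34. Fcgrt had a uninephrectomy difference of -0.21 in diabetic and 0.11 in nondiabetic mice, a difference of effects of -0.32. Dab2 had the opposite pattern, 0.06 in diabetic and -0.09 in nondiabetic mice, a difference of effects of 0.14. Its further probe sets had differences of effects of -0.27 (1423805_at), 0.16 (1430604_a_at) and -0.31 (1429693_at). With the mean of its probe sets the values of Dab2 were -0.08 in diabetic and -0.0075 in nondiabetic mice, so they no longer had opposite signs. Of all expressed genes, 5% had a difference of effects below -0.79 and 5% one above 0.76, and the values of these members lie between. With each array centred on its median, the nondiabetic uninephrectomy difference was -0.12 for Clcn5 and -0.02 for Fcgrt, so their signs were then no longer opposite.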

How the results depend on the processing

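With 1 array per group and no leave-one-out fit, the limits are those of single arrays. No paired analysis was possible because each group was 1 array of RNA pooled from 4 mice. No member passed limma for diabetes under any alternative run, with a lowest member adjusted p between 0.0792 (quantile normalisation) and 0.804 (no filter). For uninephrectomy, 1 member passed under quantile normalisation: Cubn, with a difference of -0.45 and an adjusted p of 0.0417. The lowest member adjusted p for uninephrectomy was 0.518 or more under each of the others. Of all genes, 250 passed for diabetes and 58 for uninephrectomy, against 314 and 118 with quantile normalisation, 86 and 9 with median centring, 13 and 2 with no filter, 62 and 16 with probe sets singly, 3 and 1 with the mean of probe sets, and 0 and 4 without trend (906 and 595 at an unadjusted p below 0.05). Counted singly, 1 member probe set passed 1.5-fold for diabetes in uninephrectomised mice and 1 in sham mice. The median difference of effects was -0.32, -0.18 with quantile normalisation and -0.11 with median centring. With the mean of probe sets, Lrp2 had a mean diabetes difference of -0.04 in place of -0.34, with 0.08 in sham mice, and Dab2 had a uninephrectomy difference of -0.08 in diabetic mice in place of 0.06. With probe sets ending in _s_at or _x_at left out, Lrp2 had a diabetes difference of -0.53 in place of -0.21 in sham mice. Its uninephrectomy difference in nondiabetic mice was then -0.32 in place of -0.09. Centring or quantile normalisation turned the sign of the small uninephrectomy difference of Clcn5 in nondiabetic mice (0.0044), to -0.12 and -0.03, and centring that of Fcgrt, to -0.02. The median diabetes difference relative to proximal tubule markers in uninephrectomised mice was -0.17, and 0.026 with the mean of probe sets. Amn's mean diabetes difference of -0.0091 became 0.0061 with median centring. The cause of these shifts was not tested. The diabetic uninephrectomy array was lowest for 6 or 7 of the 7 members under every alternative run.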
